A study of Arabidopsis thaliana with 42 samples.

Results

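The genes of the mitochondrial genome were followed in RNA sequencing of whole Arabidopsis seedlings (Col-0 ecotype, 14 days old). They were taken as every row of the deposited expression table whose locus identifier begins with ATMG, which gave 152 loci of 34262 in the table. The 12 libraries form 6 groups of 2: wild type (WT) at 22 and 27 °C, vil1-1 (here vil1) at 22 and 27 °C, arp6 at 22 °C, and the double mutant arp6vil1 at 22 °C. VIL1 is a PHD-finger protein that works with Polycomb repressive complex 2, and ARP6 is a subunit of the chromatin remodeller that deposits the histone variant H2A.Z. The labels give long and short days without saying which the RNA plants had, and they do not say how messenger RNA was selected or ribosomal RNA removed, nor whether the paired libraries of a group came from separate cultures, so p-values measure only the spread between these libraries. The 30 ChIP-seq samples of the series were not analysed here.

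Plant mitochondria keep a small genome that encodes some subunits of the respiratory chain and of the ATP synthase, a few ribosomal proteins, proteins that attach heme to c-type cytochromes, and the ribosomal and part of the transfer RNAs of the organelle. Most other mitochondrial proteins are encoded in the nucleus. These include the RNA polymerases that transcribe the mitochondrial genome and most of the factors that splice and edit its transcripts. Stable plant mitochondrial transcripts mostly lack long poly(A) tails, and their abundance is known to depend strongly on how fast they are degraded.

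The table gives levels as RPKM, reads per kilobase of locus scaled to the depth of the library. Loci are compared on that scale, and how well it holds for the shortest loci was not tested. It pairs no ATMG identifier with a gene name. Of 41 usual names, 24 were kept because the length of the locus, recovered from the steps in its RPKM values, equalled that of the RefSeq mitochondrial gene of the same name (19 genes) or came within 2 bases of it (5 genes: cox2, rps3, nad7, nad4 and nad5). The lengths of nad4L, nad6 and atp8 also fit other mitochondrial loci, so their names are less certain. The other 128 loci are given by identifier alone. 24 of them have the length of a mitochondrial transfer RNA, 4 are other loci of at most 88 bases, and 100 are longer.

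Levels at 22 °C in WT were uneven. The median locus stood at 3.67 and 5.1 RPKM in replicates 1 and 2, against 3.98 and 4.39 for nuclear protein-coding genes. The locus means (n = 2) ran from 1.94 to 143 RPKM, 64 of 152 loci had a mean of 5 or more, and the 5 most abundant loci held 32.9% of all mitochondrial RPKM. Among named genes the order began with rrn18, the small-subunit ribosomal RNA, at 38.6 ± 1.4 RPKM (SD, n = 2), then rrn5, the 5S ribosomal RNA, at 22.6 ± 6.1, and atp8, an ATP synthase subunit, at 18.3 ± 2.8. The ranges of rrn5 and atp8 given by their SDs overlap, though rrn5 lay above atp8 in each library. Their difference was not tested. The order of loci in WT at 22 °C was largely kept elsewhere, with a Spearman rho over 152 loci of 0.852 in warm WT seedlings, 0.867 and 0.82 in cool and warm vil1 seedlings, 0.8 in arp6vil1 and 0.675 in arp6. These are descriptions across loci of separate libraries.

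Depth, worked out from the RPKM steps, ran from 52475562 to 102794390 reads per library, and the mitochondrial loci took 35377 to 199140 reads of it. In the named mutants, ARP6 stood at 0.207 to 0.798 RPKM in the 4 libraries that carry arp6 and at 12.1 to 14.4 in the other 8. VIL1 (symbol VRN5) stood at 5.13 to 6.91 RPKM in the vil1 libraries, 6.67 to 8.71 in WT and 2.49 in both arp6vil1 libraries, so its level does not by itself check the vil1 label. Green-shoot markers were high in every library (5 of 5 above 1 RPKM, summed level 16547 to 28412), root markers were present at a summed 22.9 to 51.8, and seed and pollen markers stayed at or below a summed 5.14.

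arp6 and arp6vil1 stood apart in the lowest values of the table. The 10th percentile of the mitochondrial loci was 1.86 to 2.97 RPKM in the 8 WT and vil1 libraries, 0.229 and 0.179 in arp6, and 6.83 and 6.44 in arp6vil1. Between 104 and 194 features were at 0 in each library outside arp6, against 6651 and 6566 in the arp6 libraries. Summed pollen markers (2 genes) were 0.0108 and 0.0208 RPKM in arp6 and 1.33 to 2.03 in all other libraries. Chloroplast-encoded loci took 6.88 to 7.64% of summed RPKM in the WT and vil1 libraries, 4.07 and 4.61% in arp6, and 17 and 14.9% in arp6vil1. The part of these differences in the results on arp6 and arp6vil1 was not tested.

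**Figure D1:**
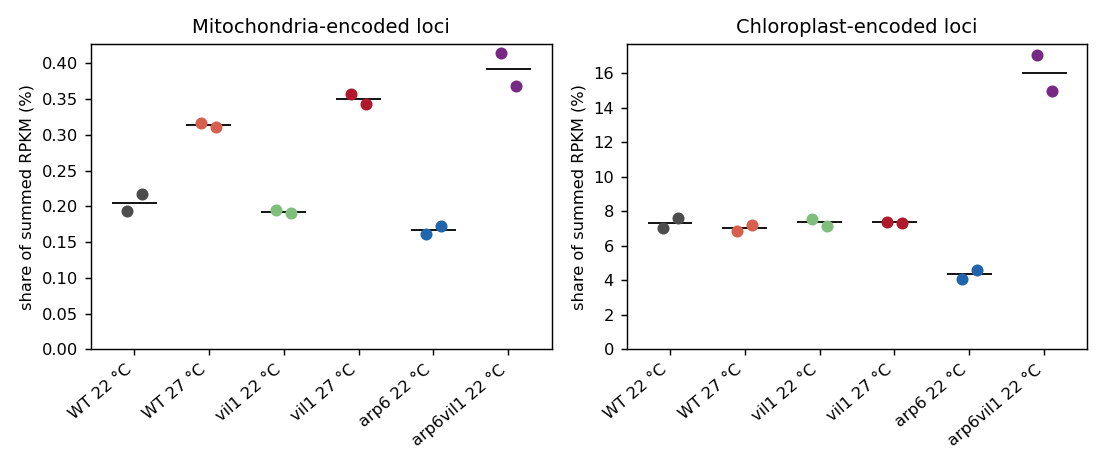
Share of each library's summed RPKM, in percent, taken by mitochondria-encoded loci (left) and by chloroplast-encoded loci (right). Each point is a library and each line the mean of 2. The mitochondrial share is above 0.3% in all 4 libraries at 27 °C and at or below 0.217% in WT and vil1 at 22 °C, while the chloroplast share is 6.88 to 7.64% in those 8 libraries.

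At 27 °C mitochondrial RNA took a larger share of the transcriptome in both genotypes that were warmed. In WT the share of summed RPKM was 0.193 and 0.217% at 22 °C and 0.316 and 0.31% at 27 °C. In vil1 it was 0.194 and 0.19% at 22 °C and 0.357 and 0.343% at 27 °C. The groups do not overlap in either genotype. With 2 libraries against 2, a two-sided exact permutation test can give no p below 0.333, and none was run. In whole seedlings, fewer or more cells of a type and less or more RNA per cell cannot be told apart.

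In WT, 46 of 152 mitochondrial loci passed the test between 27 and 22 °C, 44 of them higher and 2 lower, where 20.6% of all 31454 features tested were called (16.9% higher and 3.61% lower). All 152 loci passed the filter on low values. The median change was 0.25 on the log2 scale for the mitochondrial loci and 0.09 for all features. In vil1, 47 loci were higher and 0 lower, where 2.4% of all features were called (1.94% higher); the median change was 0.43, against 0.11 for all features. Centred on nuclear features, 29 were higher and 5 lower in WT and 36 and 0 in vil1, and centred on the mitochondrial loci 20 and 3, and 28 and 4. The first centring moved every feature by -0.19 in WT and -0.15 in vil1, the second by -0.21 and -0.39. Shares of all features called under them are not given here, so these counts have no background beside them. Of the loci called higher, 36 were shared, which is 81.8% of the WT list and 76.6% of the vil1 list. The higher loci were mostly the more abundant ones: of 69 loci with a mean of 5 RPKM or more over all libraries, 39 were called higher in WT and 40 in vil1, where 30.1 and 3.63% of all features at that level were called higher. Of the 83 loci below 5 RPKM, 5 and 7 were called higher. Of all features below that level 6.79% were called higher in WT, so 5 of 83 is near the background there, and 0.636% in vil1. Markers of other cells moved with warmth too: the summed level of 5 green-shoot markers was 27920 to 28412 RPKM in WT at 22 °C and 17284 to 17910 at 27 °C, and 26200 to 27075 and 19595 to 20253 in vil1. The 5 root markers summed to 24.7 to 39.5 and 30.1 to 40.5 in WT, which overlap, and to 22.9 to 25.3 and 34.7 to 38.7 in vil1. The 3 markers of dividing cells summed to 7.51 to 8.1 and 12.1 to 14.2 in WT and to 8.12 to 8.88 and 8.16 to 8.29 in vil1. Their part in the mitochondrial changes was not tested. The count in WT was 28 without replicate 1 at 27 °C, and the count in vil1 was 23 to 27 without any 1 of its own 4 libraries.

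**Figure D2:**
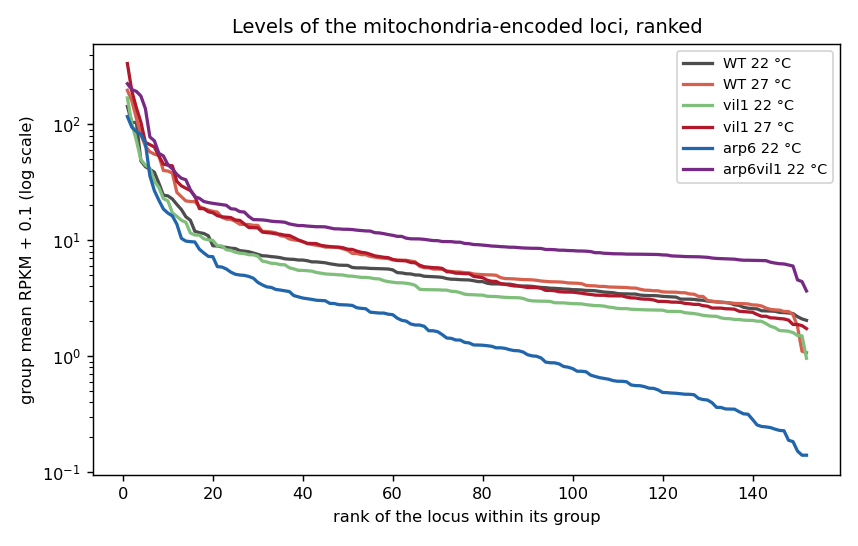
Group mean RPKM (plus 0.1, log scale) of the 152 mitochondria-encoded loci, ranked within each of the 6 groups. The curves at 27 °C rise above those at 22 °C over the more abundant loci and meet them at the low end, while the whole arp6vil1 curve lies high and the arp6 curve falls furthest.

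All 3 named ATP synthase genes rose with warmth in both genotypes, with a median log2 change of 1.13 in WT and 1.59 in vil1. atp1 encodes the alpha subunit of the catalytic head. It stood at 7.66 and 7.68 RPKM in WT at 22 °C, 23.3 and 19.7 in WT at 27 °C, 9.89 and 10.1 in vil1 at 22 °C, and 23.5 and 24.6 in vil1 at 27 °C. The warm libraries all lie above the cool ones, and the log2 change was 1.37 ± 0.11 (SE) in WT (adjusted p = 0.000226) and 1.19 ± 0.11 in vil1 (adjusted p = 0.000591). atp4, a subunit of the stalk that holds the head in place, went from 5.91 and 5.42 to 13.5 and 13.6 RPKM in WT and from 4.36 and 4.14 to 16.5 and 15.2 in vil1, 2.4-fold and 3.73-fold between means (adjusted p = 0.000185 and 4.08e-05). atp8, another membrane-part subunit, went from 18.3 ± 2.8 to 39.5 ± 2.4 RPKM in WT and from 14.2 ± 2.1 to 44.4 ± 1.6 in vil1 (SD, n = 2; adjusted p = 0.0029 and 0.00116).

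Both named subunits of cytochrome c oxidase (complex IV), the last enzyme of the respiratory chain, rose in both genotypes. cox1, which carries the catalytic center, stood at 3.66 and 4.52 RPKM in WT at 22 °C, 6.42 and 6.85 in WT at 27 °C, 3.95 and 4.02 in vil1 at 22 °C, and 7.39 and 6.58 in vil1 at 27 °C. Its log2 change was 0.59 ± 0.11 in WT (adjusted p = 0.00541) and 0.68 ± 0.11 in vil1 (adjusted p = 0.00981). cox2, which takes electrons from cytochrome c, rose further, from 11.4 ± 1.8 to 21.4 ± 2.4 RPKM in WT and from 11.5 ± 1.4 to 29.4 ± 0.77 in vil1 (SD, n = 2; adjusted p = 0.00223 and 0.000794). cob encodes cytochrome b of complex III. It stood at 3.04 and 4.01 RPKM in WT at 22 °C, 4.81 and 4.51 at 27 °C, 2.73 and 3.01 in vil1 at 22 °C, and 5.17 and 5.04 at 27 °C. It passed the test in vil1 (log2 change 0.66 ± 0.11, adjusted p = 0.0132) and not in WT (0.33 ± 0.11, adjusted p = 0.0596).

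Complex I, the NADH dehydrogenase, moved unevenly. Of its 6 named genes 2 rose in WT and 3 in vil1, and none fell. nad4L, a small membrane subunit, went from 5.87 and 7.26 to 16.5 and 15 RPKM in WT and from 5.86 and 6.25 to 14.8 and 15 in vil1 (adjusted p = 0.0015 and 0.00343). nad4, a membrane subunit of the proton-pumping part, had log2 changes of 0.63 ± 0.10 in WT and 0.79 ± 0.10 in vil1 (adjusted p = 0.00266 and 0.00255). nad7, a subunit of the arm that reaches into the matrix, stood at 5.92 and 6.91 RPKM in WT at 22 °C, 6.38 and 8.83 at 27 °C, 6.24 and 5.9 in vil1 at 22 °C, and 9.25 and 8.21 at 27 °C, and passed the test in neither genotype (adjusted p = 0.361 and 0.114). Its WT groups overlap and its vil1 groups do not. nad5 had changes of -0.11 ± 0.11 in WT and 0.19 ± 0.11 in vil1, neither past the threshold. These 6 genes thus span a range of log2 changes from -0.11 to 1.15 in WT and 0.19 to 1.17 in vil1.

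**Figure D3:**
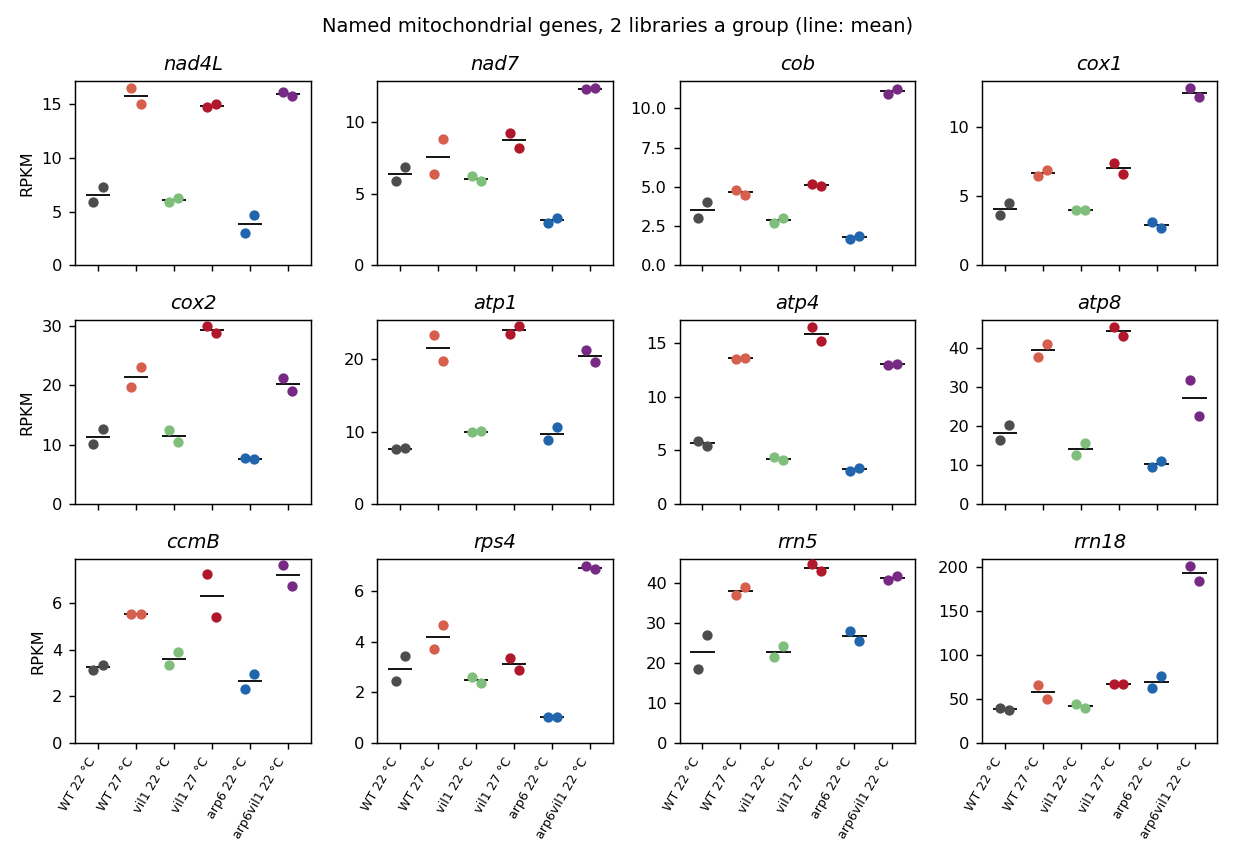
RPKM of 12 named mitochondrial genes in each library, by group; points are the 2 libraries and the line their mean, and each axis starts at 0. atp1, atp4, atp8, cox2 and nad4L are higher in all 4 libraries at 27 °C than in WT and vil1 at 22 °C, and rrn18 is highest in arp6vil1, at 201 and 184 RPKM.

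Of the 4 named genes for cytochrome c maturation, which attach heme to c-type cytochromes, 2 rose in each genotype. ccmB rose in both, from 3.25 ± 0.15 to 5.54 ± 0.015 RPKM in WT and from 3.62 ± 0.4 to 6.33 ± 1.3 in vil1 (SD, n = 2; adjusted p = 0.0105 and 0.033). ccmFN1 was called in WT alone (0.46 ± 0.13 against 0.39 ± 0.13 in vil1) and ccmFN2 in vil1 alone (0.05 ± 0.11 in WT against 0.61 ± 0.11), and the difference between genotypes passed the test for neither (adjusted p = 0.929 and 0.372). Of the 6 named ribosomal protein genes 3 rose in WT (rpl16, rps7 and rps12) and 2 in vil1 (rpl5 and rps7). None of these calls was kept under every alternative run. rps4 stood at 2.45 and 3.43 RPKM in WT at 22 °C, 3.72 and 4.66 at 27 °C, 2.59 and 2.36 in vil1 at 22 °C, and 3.37 and 2.9 at 27 °C. Its groups do not overlap in either genotype, yet the change of 0.40 ± 0.13 in WT and 0.25 ± 0.13 in vil1 did not pass (adjusted p = 0.0595 and 0.385).

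Both named ribosomal RNAs rose. rrn18 stood at 39.5 and 37.6 RPKM in WT at 22 °C, 65.5 and 50.2 at 27 °C, 44.6 and 39.1 in vil1 at 22 °C, and 66.3 and 67.2 at 27 °C. The log2 changes were 0.56 ± 0.14 (adjusted p = 0.0166) and 0.66 ± 0.14 (adjusted p = 0.0336). rrn5 rose from 22.6 ± 6.1 to 37.9 ± 1.4 RPKM in WT and from 22.8 ± 1.8 to 43.8 ± 1.3 in vil1 (SD, n = 2; adjusted p = 0.00725 and 0.0103). Of the 24 loci of transfer RNA length, 0 passed in WT and 2 rose in vil1. Of the 14 and 15 named genes called in WT and vil1, 5 stayed called in both under every alternative run: cox2, atp8, atp4, nad4L and atp1.

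Among loci known only by identifier, ATMG01080 (504 bases) had the largest rise in both genotypes. It stood at 28.6 and 33.5 RPKM in WT at 22 °C, 84.5 and 79 at 27 °C, 30 and 26.9 in vil1 at 22 °C, and 105 and 104 at 27 °C, with log2 changes of 1.37 ± 0.10 and 1.84 ± 0.10 (adjusted p = 0.000157 and 4.08e-05). ATMG00590 rose 2.58-fold in WT and 3.7-fold in vil1 between means (adjusted p = 0.000415 and 0.000164). ATMG00665, a locus of 22 bases with as few as 4 reads in a library, was called in WT at 1.27 ± 0.36 (adjusted p = 0.0296), and the call was lost without any 1 of the 4 WT libraries. ATMG00020 stood at 41.1 and 45 RPKM in WT at 22 °C, 65 and 45.5 at 27 °C, 53.2 and 46 in vil1 at 22 °C, and 69.1 and 70.7 at 27 °C, and passed in neither (adjusted p = 0.197 and 0.16). ATMG00520 went from 2.81 and 3.2 to 5.62 and 5.42 RPKM in WT and from 3.12 and 3.23 to 5.88 and 5.64 in vil1 (adjusted p = 0.0029 and 0.00958).

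The falls in WT were ATMG00440 and ATMG01140, each of 459 bases, whose values are nearly the same in most libraries. ATMG00440 stood at 4.19 and 7.76 RPKM in WT at 22 °C and 1.05 and 0.958 at 27 °C (log2 change -1.75 ± 0.20, adjusted p = 0.00078), and at 1.22 and 1.58 in vil1 at 22 °C and 1.81 and 1.75 at 27 °C. ATMG01140 was called at -1.78 ± 0.54 (adjusted p = 0.0423), and lost the call without any 1 of the 4 WT libraries, and also without either library of vil1 at 27 °C or of arp6. The authors' treatment of reads that fit several places is not given in the sources used here, so reads of this pair cannot be assigned to either locus.

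Chromosome 2 of Arabidopsis carries a copy of mitochondrial DNA, and reads of the organelle and of that copy may be shared. The 119 nuclear loci of that stretch summed to 585 and 628 RPKM in WT at 22 °C, 835 and 894 at 27 °C, 513 and 532 in vil1 at 22 °C, and 890 and 822 at 27 °C. For 3 named genes the stretch holds a locus of the same length, and its log2 level stayed within 0.218 of atp8, 0.276 of ccmC and 0.108 of rps12 in all 12 libraries. Levels of these genes therefore hold for organelle and nuclear copy together. Of the 4 mitochondrial loci that lie within 1 percent of another feature in every library, 1 matches a chromosome 2 locus and 3 match noncoding RNA entries.

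vil1 and WT were compared in how far warmth moved these loci. The difference of the 2 responses passed the test for 0 of 152 loci (0% of all features), and limma's voom on recovered reads also called 0. An unadjusted p under 0.05 was reached by 23 loci. The share of all features under that bound is not given here, so 23 cannot be set against a background. Without replicate 1 of WT at 22 °C the count was 9. The median difference, vil1 minus WT, was 0.21 for mitochondrial loci and 0.02 for all features. For atp4 it was 0.55 ± 0.12 (adjusted p = 0.371), and for atp1 -0.18 ± 0.15 (adjusted p = 0.675). Across the 152 loci the changes in the 2 genotypes, which share no library, had a Pearson r of 0.607 and a Spearman rho of 0.64, against 0.445 and 0.363 over all features; loci are not independent replicates.

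**Figure D4:**
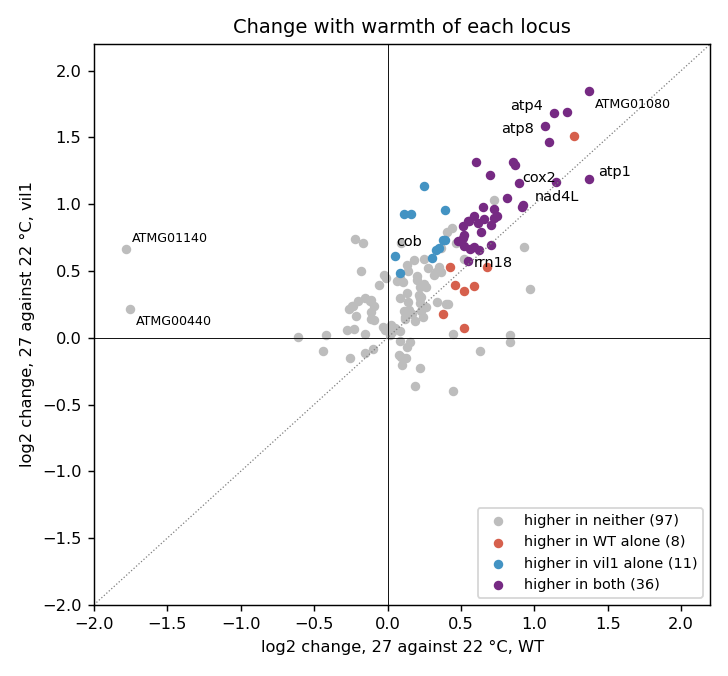
Log2 change between 27 and 22 °C of each of the 152 mitochondrial loci in WT (horizontal) and vil1 (vertical); the dotted line marks equal change and colors mark the loci called higher. 36 loci were called higher in both, 8 in WT alone and 11 in vil1 alone, and ATMG00440 and ATMG01140 lie far to the left.

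At a fixed temperature vil1 and WT differed in few mitochondrial loci. At 22 °C 6 of 152 passed the test (4.1% of all features), 1 higher and 5 lower, with a median of -0.23 against -0.16 for all features. The split was 1 and 1 centred on the mitochondrial loci, 2 and 2 with the length trend removed, and 3 and 4 with the floor subtracted. No share of all features is given beside these splits. None of the 24 named genes was among them (range of log2 changes -0.59 to 0.34). The higher one was ATMG00030, of 324 bases, at 99.4 and 108 RPKM in WT and 176 and 162 in vil1 (0.70 ± 0.09, adjusted p = 0.00735). Of the 5 lower loci, ATMG00440 had -1.49 ± 0.20 (adjusted p = 0.00805), ATMG09980, with as few as 3 reads in a library, -1.21 ± 0.17 (adjusted p = 0.012), and ATMG09730 -0.51 ± 0.09 (adjusted p = 0.0201). The count was 0 when either vil1 library at 22 °C was left out or when the groups of this comparison alone were fitted, 41 without replicate 1 of WT at 22 °C and 2 without replicate 2.

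At 27 °C 1 locus passed (0.922% of all features), again ATMG00030, at 202 and 192 RPKM in WT and 325 and 345 in vil1 (0.76 ± 0.09, adjusted p = 0.00443). In both temperatures its vil1 libraries lie above its WT libraries, 1.63-fold at 22 °C and 1.7-fold at 27 °C between means. Its own rise with warmth was 1.9-fold in WT and 1.98-fold in vil1. The call at 27 °C was lost without replicate 2 of vil1 at 27 °C, when the count was 0, and the count was 2 without replicate 1.

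In arp6 at 22 °C most mitochondrial loci were lower than in WT. 134 of 152 passed the test, 131 lower and 3 higher, where 82.3% of all features were called and 61.8% were lower. The median change was -1.10, against -0.64 for all features. Beside these changes, green-shoot markers summed to 16547 to 17172 RPKM in arp6 against 27920 to 28412 in WT, root markers to 38.2 to 51.8 against 24.7 to 39.5, and dividing-cell markers to 13.2 to 15.5 against 7.51 to 8.1; their part was not tested. The 3 higher were ATMG00020, rrn18 and atp1. rrn18 stood at 62.2 and 75.6 RPKM in arp6, against 39.5 and 37.6 in WT (0.81 ± 0.14, adjusted p = 0.000262), and ATMG00020 at 72.1 and 91.8 against 41.1 and 45 (0.90 ± 0.16, adjusted p = 0.000431). atp1 stood at 8.82 and 10.7 against 7.66 and 7.68 (0.30 ± 0.11, adjusted p = 0.0229). rrn18 held 7.39 and 8.37% of mitochondrial RPKM in the arp6 libraries, 6.83 and 6.9% in the arp6vil1 libraries and 2.59 to 3.69% in the WT and vil1 libraries.

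The falls in arp6 took in 16 of the 24 named genes. cox1 stood at 3.14 and 2.72 RPKM (-0.37 ± 0.11, adjusted p = 0.00776), cob at 1.69 and 1.9 (-0.69 ± 0.11, adjusted p = 0.000207) and nad7 at 2.97 and 3.34 (-0.83 ± 0.13, adjusted p = 0.000199). rps4 stood at 1.04 and 1.03 (-0.94 ± 0.13, adjusted p = 9.17e-05), and ATMG00520 at 1.27 and 1.78 (-0.67 ± 0.11, adjusted p = 0.000216). ccmC, another cytochrome c maturation gene, fell furthest among named genes, from 3.59 and 5.33 to 0.571 and 0.445 RPKM (-1.84 ± 0.16, adjusted p = 4.34e-06). Among unnamed loci ATMG00380, of transfer RNA length, went from 19.3 and 28.8 to 0.774 and 1.88 RPKM with as few as 3 reads (adjusted p = 5.38e-07), and ATMG00440 and ATMG01140 were each at 0.08 and 0.

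The direction in arp6 depends on how the lowest values are treated. When each library's 10th percentile of mitochondrial loci was subtracted, 31 loci were higher and 47 lower, and of the named genes 12 were higher and 4 lower. Then cox1, cob and rps4 were higher in arp6, by 0.60, 0.46 and 0.50 (adjusted p = 0.000233, 0.0226 and 0.0262), and so was ATMG00520, by 0.75. With a trend on feature length removed, 23 were higher and 77 lower. Shares of all features called in these alternative runs are not given here. Centring on nuclear features, which shifted the median of all features by 0.31, gave 8 higher and 114 lower. Centring on the mitochondrial loci themselves gave 61 higher and 33 lower, so only rrn18 among the genes higher in arp6 and ccmC among those lower kept both direction and call under all alternatives among the 7 named genes recomputed.

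In arp6vil1 mitochondrial loci were higher than in WT almost throughout. 133 of 152 passed, all of them higher, where 66.1% of all features were called and 4.91% were higher. The median change was 0.98 against -0.54 for all features. Green-shoot markers summed to 19168 to 21338 RPKM in arp6vil1 against 27920 to 28412 in WT at 22 °C. Root markers summed to 30.6 to 32.3 against 24.7 to 39.5, and dividing-cell markers to 4.04 to 4.67 against 7.51 to 8.1. Green-shoot and dividing-cell markers thus lay below WT, and the part of the markers was not tested. All 24 named genes rose. rrn18 rose furthest, to 201 and 184 RPKM from 39.5 and 37.6 in WT, 4.99-fold between means (2.29 ± 0.14, adjusted p = 7.61e-07), and ATMG00020 stood at 140 and 134 (1.65 ± 0.16, adjusted p = 8.8e-06). cox1 stood at 12.8 and 12.1 RPKM (1.41 ± 0.11, adjusted p = 2.1e-06), cob at 10.9 and 11.3 (1.43 ± 0.11, adjusted p = 2.31e-06) and atp1 at 21.3 and 19.6 (1.31 ± 0.11, adjusted p = 3.18e-06).

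nad7 stood at 12.3 and 12.4 RPKM in arp6vil1 (0.85 ± 0.13, adjusted p = 0.000216), rps4 at 7 and 6.87 (1.02 ± 0.13, adjusted p = 6.04e-05) and ATMG00520 at 7.85 and 7.4 (1.11 ± 0.11, adjusted p = 8.37e-06). ATMG00665 stood at 32.6 and 33.8 (1.86 ± 0.36, adjusted p = 0.000849). ATMG00280 rose to 87.3 and 56.8 RPKM from 17.7 and 22.9 (adjusted p = 3.87e-05). Of the loci of transfer RNA length, 12 of 24 rose. The floor of the mitochondrial loci was itself higher here, at 6.83 and 6.44 RPKM against 2.34 and 2.91 in WT at 22 °C. Centred on the mitochondrial loci themselves, 27 were higher and 13 lower. With the floor subtracted, 66 loci were higher and 9 lower, among them 16 named genes higher and 0 lower, and rps4 was at -0.01 (adjusted p = 0.978). Neither the centred nor the floor-subtracted counts have a share of all features beside them here.

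Between arp6vil1 and arp6, all 152 loci were called and all were higher in arp6vil1, where 79.1% of all features were called, 41.1% higher and 38% lower. The median was 2.09 against 0.12. rrn18 rose by 1.47 ± 0.14, cox1 by 1.78 ± 0.11 and cob by 2.11 ± 0.11. The furthest rises were those of loci with few reads in arp6: ATMG00380 stood at 0.774 and 1.88 RPKM in arp6 and 59.6 and 52.8 in arp6vil1, and ATMG00790 and ATMG00800 had 1 and 0 reads in their lowest libraries, so no fold is given. With the floor subtracted, 78 loci were higher and 5 lower, and centred on the mitochondrial loci themselves 36 and 61. Shares of all features called in those runs are not given here. Both comparisons with arp6vil1 share its libraries, so their values are not independent, and arp6vil1 was compared with vil1 at 22 °C in no test here.

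**Figure D5:**
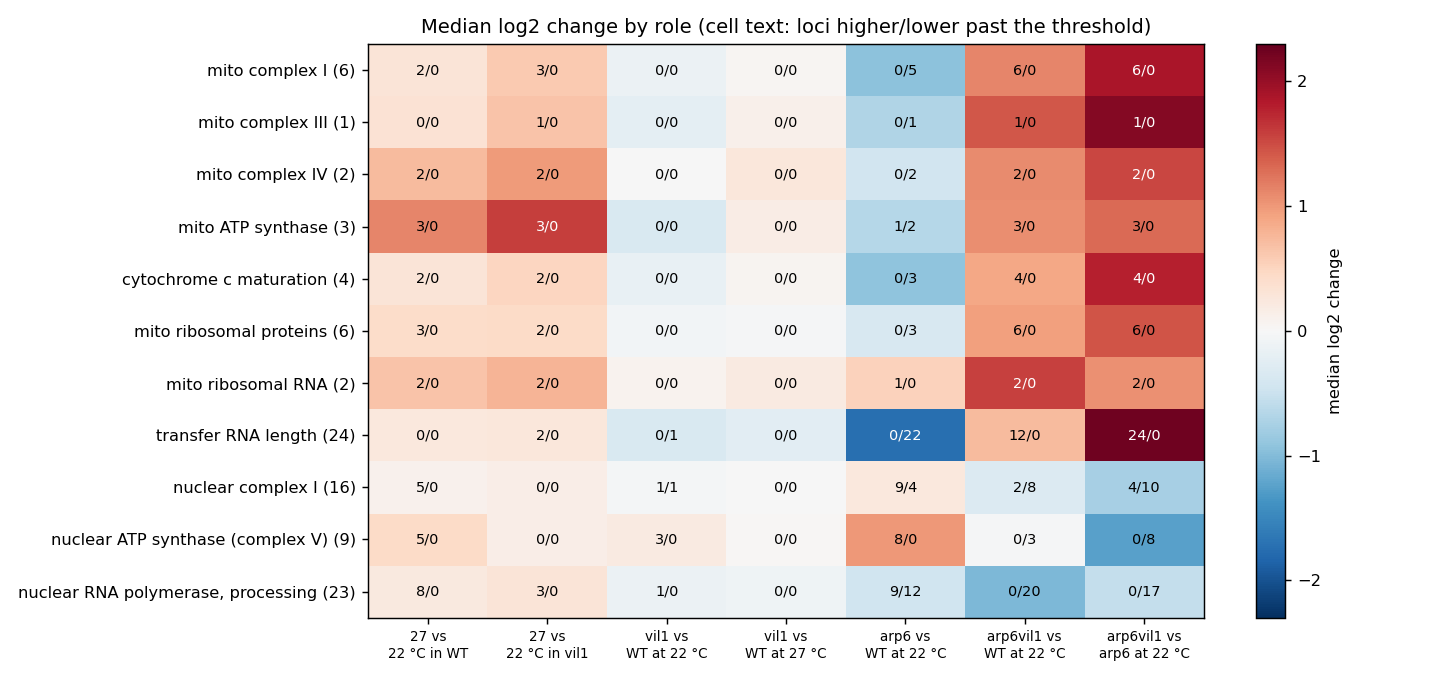
Median log2 change (color) of each role group in 7 comparisons, with the number of loci higher and lower past the threshold in each cell and the number of loci in brackets. Mitochondrial ATP synthase genes are 3/0 in both warm comparisons, and every mitochondrial group is higher in arp6vil1. The nuclear processing factors are 0/20 in arp6vil1 against WT, where 61.2% of all features were lower.

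Nuclear genes for the same machinery were read from lists beside the mitochondrial loci. Of 51 nuclear respiratory subunits of complexes I to V, 15 rose and 1 fell in WT at 27 °C, with a median of 0.10. Of all features 16.9% rose and 3.61% fell there, with a median of 0.09. Centred on nuclear features, which shifted the median of all features by -0.19, the split of the 51 was 3 and 10. The share of all features called under that centring is not given here. The 5 of 16 complex I genes that rose include EMB1467 and CI51, both subunits of the matrix arm, at 0.84 ± 0.14 (adjusted p = 0.00421) and 0.66 ± 0.16 (adjusted p = 0.0165). SDH1-1, the flavoprotein of complex II, rose by 0.69 ± 0.14, MPPBETA, a processing peptidase that is also a complex III subunit, by 0.77 ± 0.13, and COX6B of complex IV by 0.61 ± 0.14 (adjusted p = 0.00944, 0.00397 and 0.0143). In vil1, the split of these 51 was 1 and 0, where 1.94% of all features rose and 0.461% fell.

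Of 23 nuclear genes for organelle RNA polymerases and mitochondrial RNA processing, 8 rose and 0 fell in WT, and 3 rose in vil1, where 16.9 and 1.94% of all features rose. Centred on nuclear features, 5 rose in WT, with the median going from 0.23 to 0.03, and 1 rose in vil1. That centring moved every feature by -0.19 in WT and -0.15 in vil1, and the share of all features called under it is not given here. ATWHY2, a mitochondrial single-stranded DNA-binding protein, went from 11.7 ± 0.84 to 23.4 ± 1.5 RPKM in WT and from 12.3 ± 0.59 to 22.4 ± 1.1 in vil1 (SD, n = 2; adjusted p = 0.000427 and 0.00173). MORF1, an RNA editing factor, rose by 0.82 ± 0.09 in WT and 0.47 ± 0.09 in vil1, and PMH1, an RNA helicase, by 0.83 ± 0.12 in WT. The mitochondrial RNA polymerase (symbol MGP3) went from 3.55 ± 0.12 to 5.37 ± 0.44 RPKM in WT (0.48 ± 0.10, adjusted p = 0.00859; -0.06 with the length trend removed) and from 3.89 ± 0.38 to 5.01 ± 0.11 in vil1 (adjusted p = 0.161). The polymerase shared by both organelles, AT5G15700, did not pass in either genotype (0.20 and 0.27).

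Of 15 genes for alternative respiration and mitochondrial stress, 4 rose and 0 fell in WT, where 16.9% of all features rose. Centred on nuclear features, the split was 2 and 0, with no share of all features given beside it. HSP23.6-MITO, a small heat shock protein of the mitochondrion, went from 11.2 ± 3.5 to 103 ± 52 RPKM in WT and from 44.7 ± 0.084 to 179 ± 0.5 in vil1 (SD, n = 2; adjusted p = 0.000524 and 0.00967). AOX1A, the main alternative oxidase and a usual marker of respiratory stress, stood at 67 ± 28 and 92.3 ± 21 RPKM in WT at 22 and 27 °C and at 127 ± 5.9 and 131 ± 0.72 in vil1 (adjusted p = 0.179 and 0.933).

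In arp6vil1 against WT, 4.91% of all features were higher and 61.2% lower. Of the 51 respiratory subunits 6 were higher and 21 lower, and of the 23 RNA polymerase and processing genes 0 were higher and 20 lower. These splits depend on scaling: centred on nuclear features, which shifted the median of all features by 0.87, they were 41 and 0, and 5 and 8. That median was -0.54 before the shift, which moved every feature alike. The share of all features called after it is not given here, so the centred splits have no background beside them. SDH1-1 had -1.18 ± 0.14, COX6B -0.93 ± 0.14 and MEF1, an RNA editing factor, -1.43 ± 0.15. GAMMA CA1, a complex I subunit, went from 11.3 ± 0.077 to 5.18 ± 0.37 RPKM (SD, n = 2; adjusted p = 3.65e-06). The mitochondrial RNA polymerase stood at 1.32 ± 0.11 RPKM in arp6vil1 and 7.49 ± 0.58 in arp6, against 3.55 ± 0.12 in WT (adjusted p = 1.08e-05 and 1.69e-05 against WT; -0.33 with the length trend removed in arp6). In arp6, where 20.6% of all features were higher and 61.8% lower, the nuclear lists were mixed. Of the 51 respiratory subunits 24 were higher and 8 lower. The split was 9 and 4 in complex I, 3 and 0 in complex II, and 3 and 2 in complex III with cytochrome c. It was 1 and 2 in complex IV, and 8 and 0 in the ATP synthase. Centred on nuclear features the 51 split 37 and 4, with no share of all features given beside it. The RNA polymerase and processing genes were 9 and 12 with a median of -0.46, and those of alternative respiration and stress 4 and 8 with a median of -0.74. AOX1A passed in neither mutant (adjusted p = 0.0546 in arp6 and 0.0708 in arp6vil1).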

How the data were processed

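RNA-seq of 12 seedling libraries was used. The authors deposited RPKM values for 34262 features, 1 column per library. The submitters' processing notes list the TAIR10 build, the aligners Bowtie2 and HISAT2, and FastQC, edgeR, bedtools and SAMtools, with no order or versions; handling of reads that map to several places is not given in the sources used here. 0 columns were left unused.

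From these values, log2(RPKM + 1) was fitted with limma 3.58.1 in R 4.3.3 (variance trend, 1 mean per group, 12 libraries). Features were kept that reached RPKM 1 in at least 2 libraries. The Benjamini-Hochberg adjusted p over all tested features had to be under 0.05. Log2 changes are on that scale, which understates changes of low loci, while folds between means are ratios of group mean RPKM. Reads and lengths were recovered from RPKM steps (tolerance 0.02 reads), and at least 99.95% of values came out whole; voom on these reads called 7060 of 30023 features in WT and 1184 in vil1 with warmth, 37 and 43 of them mitochondrial. The alternatives were 2 other pseudocounts, filters, scalings, fits and left-out libraries; voom, removal of a length trend, floor subtraction and the fit of WT and vil1 alone were added after seeing the data. Tested on simulated reads, the fit recovered every 4-fold and most 2-fold changes, but false calls exceeded the nominal share, and the bound first set for 2-fold recovery was missed and then loosened. Adjusted p-values near the threshold may therefore be too small. Centring moves every feature of a comparison by the same amount. Shares of all features called in the centred, length-trend and floor-subtracted runs are not given here, so counts from those runs have no background beside them.

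The members and lists were chosen with earlier results of these data known. Values in every library were given for fixed key genes, and otherwise for up to 3 largest rises and falls per comparison with a mean RPKM of 5 or more. Replicate numbers were not used as pairs in the main fit, and whether they mark a shared harvest or batch is not known.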

Additional observations from a re-analysis of the deposited data

Results flagged for a closer look

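The 3 loci ATMG01140, ATMG00440 and ATMG09980 moved opposite ways with warmth in WT and vil1 in every library. The difference of their responses, vil1 minus WT, was 2.45 on the log2 scale for ATMG01140, 1.97 for ATMG00440 and 0.88 for ATMG09980, and none passed the test of that difference (adjusted p = 0.372, 0.129 and 0.372). ATMG00440 and ATMG01140 share most of their values, so they count as 1 observation. ATMG09980 stood at 6.03 and 5.34 RPKM in WT at 22 °C, 4.75 and 5.12 at 27 °C, 2.24 and 1.58 in vil1 at 22 °C, and 4.23 and 3.27 at 27 °C.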

How the results depend on the processing

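Counts of loci past the threshold stayed within 1.5 times the given count under all alternatives other than left-out libraries, except these. Between 27 and 22 °C in WT the count was 23 centred on the mitochondrial loci and 26 with only the groups compared. Between vil1 and WT at 22 °C it was 2 centred on the mitochondrial loci, 0 with only the groups compared and 3 with WT and vil1 libraries alone; at 27 °C it was 4 centred on nuclear features, 0 centred on the mitochondrial loci, 5 with the length trend removed and 2 with the floor subtracted. For arp6 it was 53 at a mean RPKM of 5 or more, 87 with quantile normalization and 78 with the floor subtracted. For arp6vil1 against WT it was 61, 40 and 75 at a mean of 5 or more, centred on the mitochondrial loci and with the floor subtracted, and against arp6 69, 97 and 83. Fewer loci are tested at a mean of 5 or more; for the others the cause was not tested.

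Leaving out 1 library gave 28 to 53 calls in WT with warmth, 23 to 56 in vil1, 0 to 9 for their difference, 0 to 41 for vil1 at 22 °C, 0 to 2 at 27 °C, 122 to 136 for arp6, 117 to 136 for arp6vil1 against WT and 149 to 152 against arp6. With the replicate block the counts were 42, 42, 0, 5, 1, 133, 133 and 152, in that order. The log2 differences between replicates 2 and 1 of a group correlated between groups at -0.25 to 0.22, over 15 pairs of groups. With 1 such difference per group, these correlations cannot show whether libraries of the same number shared a harvest or batch. The main fit used no pairing.

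Directions turned as follows, and the cause was not tested. In arp6, centring on the mitochondrial loci gave 0.58 for cob, 0.32 for rps4, 0.43 for nad7, 0.59 for ATMG00520 and 0.89 for cox1; subtracting the floor gave 0.46 for cob, 0.50 for rps4, 0.75 for ATMG00520 and 0.60 for cox1; cox1 was 0.0081 with quantile normalization and 0.12 with the length trend removed. In arp6vil1 against WT, rps4 was -0.0063 with the floor subtracted, nad7 -0.090 and ccmC -0.10 centred on the mitochondrial loci, MGP1 0.44 and CYTC-2 0.10 centred on nuclear features, and MGP1 0.30 with the length trend removed. Against arp6, centring on the mitochondrial loci gave -1.46 for ATMG00020, -0.092 for cob, -0.25 for rps4, -0.52 for nad7, -0.43 for ATMG00520, -1.20 for atp1, -0.43 for cox1 and -0.73 for rrn18; subtracting the floor gave -0.51 for rps4 and -0.21 for ATMG00520. The length trend turned MGP3 to -0.061 in WT with warmth and -0.33 in arp6. The median change of the mitochondrial loci in WT with warmth was 0.05 centred on nuclear features, 0.03 centred on those loci themselves and 0.55 at a mean of 5 or more. Each centring moves every feature by the same amount. The gap between the medians of the mitochondrial loci and of all features, 0.25 and 0.09 without centring, is therefore unchanged by it. Depth limits the shortest loci, some with fewer than 5 reads in a library.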
